A study of Mus musculus with 6 samples.

Results

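The genes described here are Pparg, Mogat1 and the lipid droplet proteins Cidea, Cidec, Plin2, Plin3, Plin4, Plin5, Fitm1 and Fitm2, 10 of the 16638 genes in the deposited table, chosen by their symbols. They were measured in whole liver of obese mice by RNA sequencing. HA (hippuric acid, made when glycine is joined to benzoic acid) had been injected into the peritoneum of 1 group at 60 mg/kg, 2 times a week for 5 weeks (n = 3 libraries), and the other group had PBS (phosphate-buffered saline, n = 3 libraries). The sources used here do not give how the mice were made obese, their strain, sex or age, or the schedule of PBS. All libraries, PBS included, were thus from obese animals, with no lean group. Nothing in the labels says that each library was of a different animal, so p-values measure the spread between these libraries.

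Fat is stored in hepatocytes as droplets of triglyceride under a single layer of phospholipid. PPARG is a nuclear receptor that pairs with RXR and drives the fat-storing program of adipocytes, and it is raised in the fatty livers of obese mice, where Mogat1, Cidea, Cidec and Plin4 are among the genes it switches on. MOGAT1 makes diacylglycerol, FITM proteins help droplets bud from the endoplasmic reticulum, perilipins coat them, and CIDE proteins let small droplets fuse into large ones.

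All 10 genes were lower on average after HA, and 1 of them, Mogat1, fell past the threshold. Levels are in FPKM, fragment numbers divided by gene length and library size. Tests used limma on log2(FPKM + 1) over the 10745 genes averaging 0.5 FPKM or more, with Benjamini-Hochberg adjusted p below 0.05 as the threshold, and all 10 genes were tested. The share of all tested genes that fell was 0.512%, and the share that rose was 0.289%. Of the 10 genes, 0 rose in limma and 0 rose with voom, and with voom 1 fell, again Mogat1 (voom adjusted p = 0.0357). At an unadjusted p under 0.05, 8 of the 10 were lower and 0 higher, against 13.1% of all tested genes lower and 4.61% higher. In 8 of the 10 every HA value lay below every PBS value, against 19.2% of all tested genes, and in the other 2, Plin3 and Plin5, the groups overlapped. In 0 of the 10 did every HA value lie above every PBS value, against 6.47% of all tested genes. The median log2 fold change of the 10 was -1.20, and that of all tested genes was -0.06, of which 62.8% were negative. The 10 genes, and the lists below, were chosen with earlier results of these data known. Their shares beside those of all tested genes are therefore descriptions, not independent tests. Of all genes, 31 rose and 55 fell, or 36 and 32 after median centring of each library and 33 and 24 with depth counted outside albumin (Alb). With voom on recovered fragments 28 rose and 19 fell. In whole liver, fewer cells of a type and less RNA per cell cannot be told apart.

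**Figure D1:**
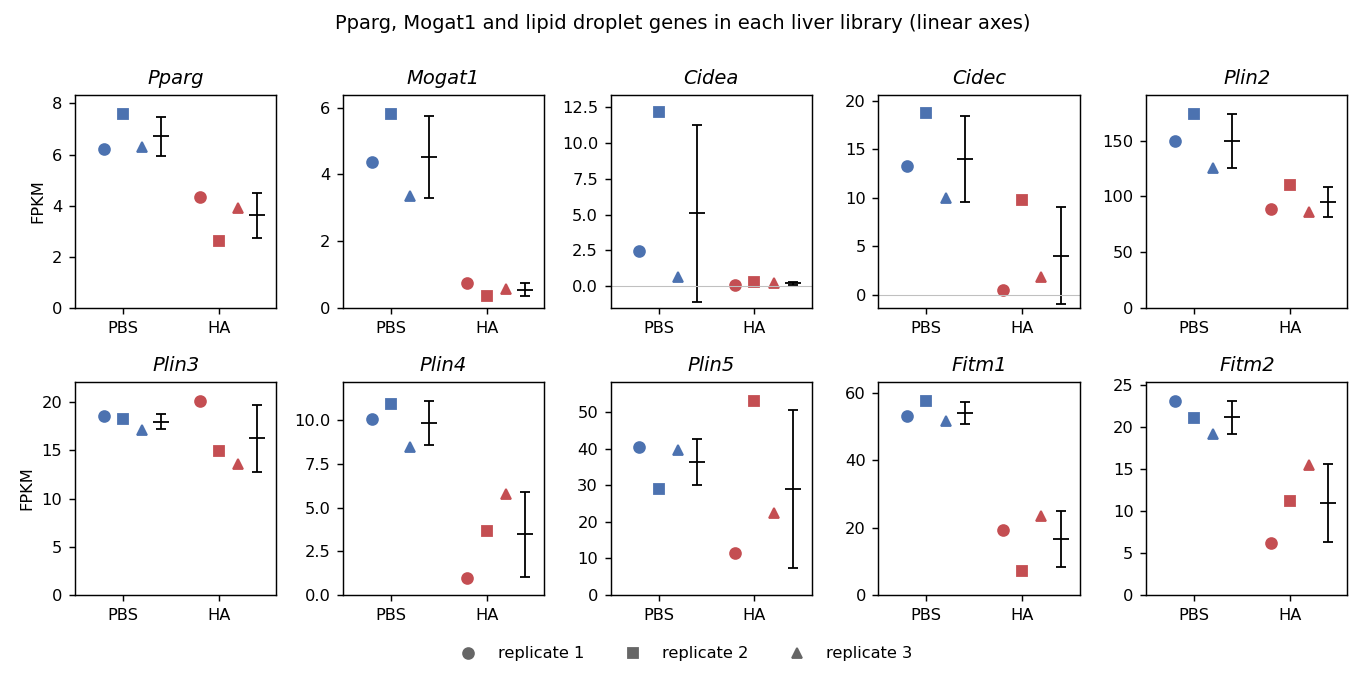
FPKM of each of the 10 genes in 3 PBS (blue) and 3 HA (red) libraries on linear axes from 0 or below, with marker shape for replicate number and black bars for mean ± SD. Fitm1 sat between 51.6 and 57.6 FPKM in the PBS and between 7.23 and 23.4 FPKM in the HA libraries, while the Plin3 and Plin5 groups overlapped.

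Depth was 37921444 to 39908844 fragments per library, worked back from the FPKM values. All 6 hepatocyte markers looked up were present in every library, and Alb took 7.54 to 9.84% of fragments with PBS and 12.6 to 14.7% with HA. Transcripts of other tissues set some libraries apart. All 7 skeletal muscle markers and all 5 adrenal cortex markers were found in PBS replicate 1, summing to 46.4 and 61.2 FPKM, against at most 0.979 and 0.391 FPKM in any other library. White adipocyte markers (6 of 6 measured) summed to 11.6 to 32.9 FPKM in PBS libraries and 11.6 to 53.2 FPKM in HA libraries. The adipocyte hormone gene Adipoq was at 1.85 FPKM in PBS replicate 1 and 1.70 FPKM in HA replicate 2, against 0.102 to 0.234 FPKM in the other 4, and the adipocyte perilipin Plin1 was at 0.695 and 0.368 FPKM in those libraries and at most 0.0127 FPKM elsewhere. Several results are therefore also given without 1 or both of these libraries. In PBS replicates 1 to 3, brown adipocyte markers (4 of 4 measured) summed to 35.4, 80.2 and 38.6 FPKM. In HA replicates 1 to 3 they summed to 22.9, 12.5 and 10.1 FPKM. The sum was lower with HA without overlap, as were 8 of the 10 genes. Most of that sum was Elovl3, a fatty acid elongase also made by liver, which was itself lower without overlap. Ucp1, which defines brown fat, was at 0.904 FPKM in PBS replicate 1, 0.0159 FPKM in HA replicate 2 and 0 in the other 4. The means of Cox7a1 (PBS 2.15, HA 2.53 FPKM) and Ppargc1a (PBS 0.927, HA 1.17 FPKM) were instead higher after HA, with overlapping groups. The lower sum therefore does not describe all 4 markers. Markers of macrophages (5 measured) summed to 36.5 to 44.2 FPKM in PBS libraries and 46.7 to 82.0 FPKM in HA libraries, higher without overlap. Among them only Marco was without overlap by itself, at 3.77 ± 3.09 and 12.3 ± 2.41 FPKM (limma adjusted p = 0.109). Endothelial markers (4 measured) summed to 29.9 to 40.6 FPKM in PBS and 23.9 to 40.9 FPKM in HA libraries. Stellate cell markers (5 measured) summed to 48.9 to 84.3 and 50.1 to 114 FPKM, and bile duct markers (4 measured) to 1.13 to 2.08 and 1.36 to 5.78 FPKM. The part of these cells in the results was not tested.

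Pparg, the receptor itself, was at 6.23, 7.58 and 6.31 FPKM in PBS replicates 1 to 3 and at 4.35, 2.63 and 3.89 FPKM in HA replicates 1 to 3. Every HA library was below every PBS library, and HA replicate 2 was the lowest. The means were 6.71 ± 0.760 and 3.63 ± 0.887 FPKM (SD, n = 3 per group), 1.85-fold lower with HA. The log2 fold change was -0.75 (SE 0.16, 95% interval -1.13 to -0.38), which did not pass over all genes (limma adjusted p = 0.0840). HA replicate 2, the lowest, held far more Adipoq than the other HA libraries, and without both it and PBS replicate 1 the log2 fold change was -0.63 (adjusted p = 0.236). RefSeq lists several start sites for Pparg, and the table gives it a single value, so its liver and adipocyte isoforms are not separated.

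Among the 5 genes whose profile over the 6 libraries lay closest to that of Pparg, by Euclidean distance between centred log2(FPKM + 1) values among 9058 candidates, were Glul (distance 0.168), Nfe2l1 (0.188) and Ugdh (0.207). Glul encodes glutamine synthetase, Nfe2l1 a transcription factor and Ugdh the enzyme that makes UDP-glucuronate. As with Pparg, the lowest value of each of these was in HA replicate 2. They were chosen by closeness to Pparg over the same values, so this shared order follows largely from the choice. Glul, for example, was at 387, 505 and 425 FPKM in PBS replicates 1 to 3 and at 304, 222 and 301 FPKM in HA replicates 1 to 3.

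Of 17 partners and cofactors tested, 0 rose and 0 fell in limma or with voom, 3 were lower and 0 higher at an unadjusted p under 0.05 (13.1% and 4.61% of all tested genes), and the median log2 fold change was -0.11 (-0.06 over all tested genes). Ppara, the receptor that drives fatty acid oxidation in hepatocytes, was at 41.0 ± 6.03 FPKM in PBS and 25.8 ± 6.91 FPKM in HA libraries (adjusted p = 0.151). Cebpa, a transcription factor of hepatocytes and adipocytes, was at 159.6 ± 2.34 and 126.7 ± 15.0 FPKM (adjusted p = 0.195). The corepressor Ncor1 was at 7.89 ± 0.522 and 6.26 ± 0.714 FPKM (adjusted p = 0.222), and the RXR gene Rxrb at 8.49 ± 1.72 and 6.86 ± 0.255 FPKM (adjusted p = 0.380).

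Mogat1, which adds a fatty acid to monoacylglycerol, was at 4.36, 5.81 and 3.37 FPKM in PBS replicates 1 to 3 and at 0.736, 0.351 and 0.578 FPKM in HA replicates 1 to 3. The HA values rest on 41, 19 and 31 fragments and the PBS values on 241, 328 and 182. The groups stood well apart, with the lowest PBS value several times the highest HA value. Mogat1 fell from 4.51 ± 1.23 to 0.555 ± 0.193 FPKM (SD, n = 3 per group), 8.13-fold, with a log2 fold change of -1.81 (SE 0.18, 95% interval -2.22 to -1.39, limma adjusted p = 0.0161) that understates the change at these low levels. It ranked 8 by p among all tested genes. Among libraries left out, the call was lost without PBS replicate 1, the library with adrenal and muscle transcripts (adjusted p = 0.0714), although the fold was then 8.26, and with PBS replicate 1 and HA replicate 2 both left out (log2 fold change -1.72, adjusted p = 0.0839). Over all 15 alternatives the adjusted p ran from 0.0142 to 0.0839. Mogat1 per unit of Pparg was 0.700, 0.766 and 0.534 in PBS replicates 1 to 3 and 0.169, 0.133 and 0.148 in HA replicates 1 to 3. This within-library ratio, which no scaling of depth can move, did not overlap between the groups, and its exact permutation p of 0.1 (two-sided) is the smallest that 3 against 3 allows (0.3 adjusted over the 6 ratios computed).

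PPARG and RXR bind pairs of AGGTCA separated by a single base. The pattern AGGTCANAGGTCA was sought on both strands of RefSeq promoters (build GRCm38.p6), 250 bases before to 50 after each listed start. At most 2 of its 12 fixed bases differed in 3.86% of the 32851 promoters of the table, and at most 3 differed in 24.6%. Of 13 promoters of 9 of the genes, 2 came within 2 differences, those of Mogat1 and Plin2, and 7 within 3. Cidea was left out of the search. The Mogat1 window lay 51 to 39 bases upstream of the listed start, and the Plin2 window 225 to 213 bases upstream on the opposite strand. These windows are shown first against the pattern, with matching bases in capitals, and then within their promoters, with the window in capitals (Mogat1, chr1:78510810-78511109, plus strand; Plin2, chr4:86670010-86670309, minus strand).
Pattern: AGGTCANAGGTCA
Mogat1 window: AGGTaAaAaGTCA
Plin2 window: AGGTCAggGGTCc
Mogat1 promoter: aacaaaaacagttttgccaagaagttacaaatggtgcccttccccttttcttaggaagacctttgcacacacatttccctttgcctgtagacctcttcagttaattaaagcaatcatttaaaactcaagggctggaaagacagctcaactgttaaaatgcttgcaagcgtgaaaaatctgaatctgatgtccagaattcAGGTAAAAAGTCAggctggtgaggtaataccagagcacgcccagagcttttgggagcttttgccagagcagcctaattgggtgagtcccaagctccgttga
Plin2 promoter: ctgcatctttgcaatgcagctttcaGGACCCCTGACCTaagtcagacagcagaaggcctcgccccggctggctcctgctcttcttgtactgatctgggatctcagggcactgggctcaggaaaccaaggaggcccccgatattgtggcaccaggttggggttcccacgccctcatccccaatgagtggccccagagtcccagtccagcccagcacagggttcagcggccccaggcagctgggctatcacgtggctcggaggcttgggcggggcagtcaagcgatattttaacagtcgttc
A match describes letters only, since binding was not measured. A lone AGGTCA on either strand was found in 5 of the 13 promoters, against 16.3% of all promoters, and the Plin2 promoter held it inside the window shown.

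Genes closest in profile to Mogat1, by the same distance, were Serpinb1a (0.445), Cyp8b1 (0.621), Sult2a7 (0.636), Slc25a30 (0.654) and Themis (0.666). Serpinb1a, a protease inhibitor, was at 11.0, 11.4 and 9.96 FPKM in PBS and 2.62, 2.21 and 3.20 FPKM in HA in replicates 1 to 3, and fell (limma adjusted p = 0.00608). Cyp8b1, which makes the cholic acid branch of bile acids, was at 159, 249 and 176 FPKM in PBS and 65.1, 54.6 and 84.3 FPKM in HA. It also fell (limma adjusted p = 0.0411). Sult2a7, a sulfotransferase, and Slc25a30, a mitochondrial carrier, fell too (limma adjusted p = 0.0411 and 0.0387), and Themis did not pass (limma adjusted p = 0.0540). Sult2a7 and Slc25a30 also had their highest value in PBS replicate 2, as Mogat1 did. These genes were chosen by closeness to Mogat1 over the same values, so shared falls and orders follow largely from the choice.

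Of 16 listed genes for other enzymes that acylate mono- and diacylglycerol or make their precursors, 12 were tested, and of these 0 rose and 0 fell in limma or with voom, while 6 were lower and 0 higher at an unadjusted p under 0.05 (13.1% and 4.61% of all tested genes), and the median log2 fold change was -0.31. Agpat2, which makes phosphatidic acid, was at 105, 127 and 105 FPKM in PBS replicates 1 to 3 and 68.7, 85.3 and 70.7 FPKM in HA replicates 1 to 3 (log2 fold change -0.58, adjusted p = 0.0894). Gpat4, of the first acylation step, was at 43.5 ± 5.32 and 28.0 ± 8.39 FPKM (adjusted p = 0.181), and Agpat3 at 31.9 ± 3.55 and 24.1 ± 2.69 FPKM (adjusted p = 0.181). Dgat2, which makes triglyceride from diacylglycerol, was at 234 ± 22.8 and 171 ± 39.0 FPKM with overlapping groups (adjusted p = 0.218).

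The largest coefficients of variation among the 10 genes were those of Cidea with PBS, 122%, and Cidec with HA, 124%. Cidea, best known from brown fat and from fatty liver, was at 2.46, 12.2 and 0.652 FPKM in PBS replicates 1 to 3 and at 0.0873, 0.292 and 0.249 FPKM in HA replicates 1 to 3. PBS replicate 2 stood far above the rest, and the lowest PBS value was still above every HA value. The HA values rest on 4, 13 and 11 fragments. The means of 5.09 ± 6.19 and 0.210 ± 0.108 FPKM (SD, n = 3 per group) differed 24.3-fold, or 7.43-fold without PBS replicate 2, and the log2 fold change of -1.81 (SE 0.65) did not pass (adjusted p = 0.218). In PBS replicate 2, where Cidea was highest, the brown fat gene Ucp1 and the adipocyte genes Plin1 and Retn were at 0 and Adipoq was at 0.102 FPKM. Elovl3, from the brown adipocyte markers, was highest there too, at 77.5 FPKM against 30.4 and 36.1 FPKM in PBS replicates 1 and 3 and 7.38 to 19.5 FPKM in the HA libraries. Cfd, the adipocyte protease adipsin, was also highest there, at 25.2 FPKM against 0.882 to 10.1 FPKM in the other 5. The part of these transcripts in the Cidea values was not tested.

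Cidec, the main droplet fusion protein of white fat, was at 13.3, 18.8 and 9.98 FPKM in PBS replicates 1 to 3 and at 0.536, 9.77 and 1.80 FPKM in HA replicates 1 to 3. HA replicates 1 and 3 were far below all PBS libraries, and HA replicate 2 was just under the lowest of them. The means were 14.0 ± 4.44 and 4.04 ± 5.00 FPKM (SD, n = 3 per group), 3.47-fold lower with HA, with a log2 fold change of -2.02 (SE 0.64, 95% interval -3.52 to -0.52, adjusted p = 0.173). Without HA replicate 2, the HA library with the most Adipoq, the fold was 12.0 and Cidec passed (log2 fold change -2.81, limma adjusted p = 0.0232). With PBS replicate 1 left out as well, the log2 fold change was -2.83 (adjusted p = 0.0839). The part of adipocyte RNA in the value of HA replicate 2 was not tested. The hepatocyte relative Cideb, which acts in lipoprotein loading, was at 239 ± 5.13 and 197 ± 15.9 FPKM with no overlap (adjusted p = 0.219).

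**Figure D2:**
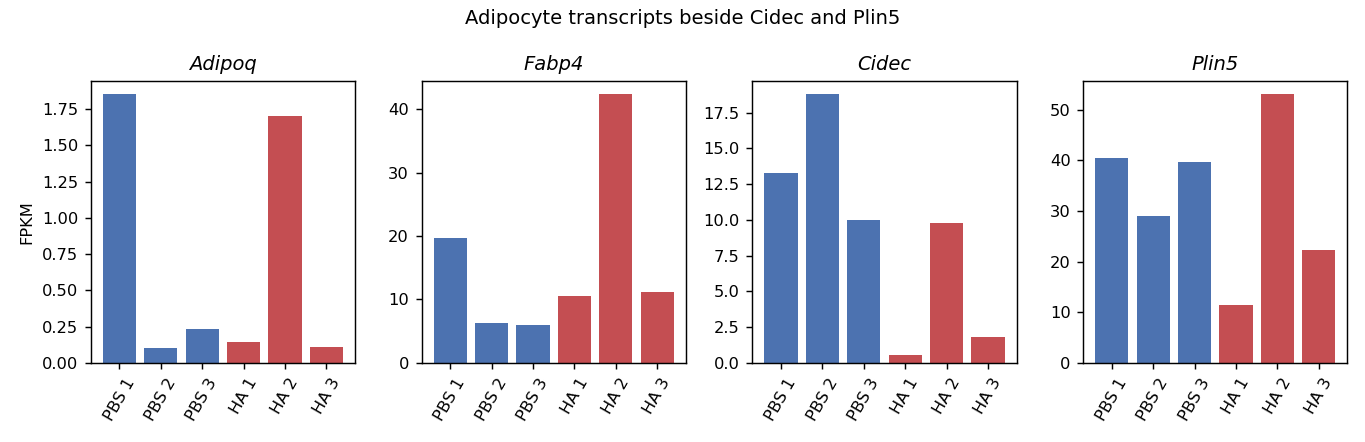
FPKM per library (group and replicate) of the adipocyte genes Adipoq and Fabp4 beside Cidec and Plin5, with PBS in blue and HA in red. HA replicate 2 held the highest Cidec, Plin5, Fabp4 and Adipoq of the HA libraries, and PBS replicate 1 held Adipoq at 1.85 FPKM.

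Among perilipins, Plin2 and Plin4 were lower with no overlap between groups and Plin3 and Plin5 overlapped. Plin2, the main droplet coat of hepatocytes, was at 150.0, 174 and 126 FPKM in PBS replicates 1 to 3 and at 89.0, 111 and 85.7 FPKM in HA replicates 1 to 3. Its means of 149.8 ± 24.1 and 95.1 ± 13.6 FPKM (SD, n = 3 per group) differed 1.58-fold, with a log2 fold change of -0.65 (SE 0.16, adjusted p = 0.107). Plin2 was the most abundant of the 10 genes in both groups, on 13409 to 28630 fragments a library.

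Plin4, a long perilipin of adipocytes and muscle, was at 10.1, 10.9 and 8.46 FPKM in PBS replicates 1 to 3 and at 0.957, 3.66 and 5.79 FPKM in HA replicates 1 to 3. The PBS values lay close together, and the HA values spread 6.05-fold. The log2 fold change was -1.45 (SE 0.41, adjusted p = 0.138), and the fold of the means was 2.83, or 4.25 without HA replicate 3 and 2.08 without HA replicate 1. Without HA replicate 2 and PBS replicate 1, the libraries with the most Adipoq, the log2 fold change was -1.54 (limma adjusted p = 0.340).

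Plin5, which ties droplets to mitochondria in tissues that burn fat, was at 40.4, 29.0 and 39.6 FPKM in PBS replicates 1 to 3 and at 11.5, 53.0 and 22.3 FPKM in HA replicates 1 to 3. HA replicate 2 was the highest of all 6 libraries, and the other HA libraries were below every PBS library. The log2 fold change was -0.56 (SE 0.47, 95% interval -1.67 to 0.54, adjusted p = 0.562), and the mean with HA was 1.26-fold lower. It was 2.15-fold lower without HA replicate 2, with a log2 fold change of -1.12 (adjusted p = 0.112), and without HA replicate 1 the PBS mean was 0.965 of the HA mean. With PBS replicate 1 and HA replicate 2 both left out, the log2 fold change was -1.03 (limma adjusted p = 0.293).

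Plin3, a perilipin of many tissues that moves between cytosol and droplet, was at 18.6, 18.3 and 17.1 FPKM in PBS replicates 1 to 3 and at 20.1, 15.0 and 13.6 FPKM in HA replicates 1 to 3. HA replicate 1 was the highest library and HA replicate 3 the lowest. The log2 fold change was -0.16 (SE 0.15, 95% interval -0.50 to 0.19, adjusted p = 0.604). The interval includes 0 and changes of either sign.

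Summed over Plin2 to Plin5, perilipin transcripts were 214 ± 21.2 FPKM in PBS and 144 ± 33.5 FPKM in HA libraries. Plin2 made up 65.8 to 74.9% of the sum with PBS and 60.7 to 73.2% with HA. Plin3 made up 7.88 to 8.94% and 8.20 to 16.5%, and Plin4 4.43 to 4.72% and 0.788 to 4.54%. Plin5 took 29.1% in HA replicate 2 and 9.42% in HA replicate 1, against 12.5 to 20.8% with PBS. The ratio of Plin4 to Plin3 was 0.542, 0.599 and 0.496 in PBS replicates 1 to 3 and 0.0476, 0.245 and 0.426 in HA replicates 1 to 3, with no overlap (exact permutation p = 0.1, the smallest possible, and 0.3 adjusted over the 6 ratios). The ratio of Plin2 to Plin3 overlapped, at 7.36 to 9.51 with PBS and 4.43 to 7.40 with HA (exact permutation p = 0.2, 0.3 adjusted).

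**Figure D3:**
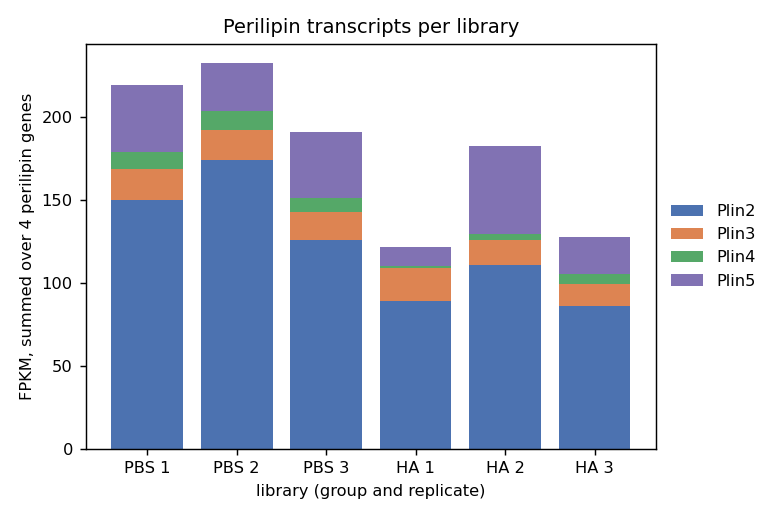
Stacked FPKM of Plin2, Plin3, Plin4 and Plin5 in each library (group and replicate), on a linear axis from 0. The sum was 191 to 232 FPKM in the PBS libraries and 122, 182 and 127 FPKM in HA replicates 1 to 3, with Plin5 widest in HA replicate 2.

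Plin3, Plin4 and Plin5 lie on chromosome 17, where Plin4 and Plin5 are next to each other among protein-coding genes and 7 others separate Plin5 from Plin3 (RefSeq, GRCm38.p6). Genes beside them did not pass. Hdgfl2, beside Plin4, was at 3.94, 4.55 and 3.48 FPKM in PBS replicates 1 to 3 and 4.39, 5.55 and 5.01 FPKM in HA replicates 1 to 3 (adjusted p = 0.309). Lrg1, a secreted glycoprotein gene beside Plin5, was at 257 ± 87.0 and 359 ± 56.0 FPKM (adjusted p = 0.344), and Ticam1, beside Plin3, at 4.16 ± 0.870 and 3.89 ± 0.486 FPKM (adjusted p = 0.842), with overlapping groups in all 3 genes. Exons of Hdgfl2 overlap Plin4 on the opposite strand in the GENCODE M21 annotation, and genes on the opposite strand also overlap Mogat1, Fitm1 and Fitm2. Whether counting used strand is not given in the sources used here, so these 4 genes could share fragments with those partners.

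Fitm1 and Fitm2, which promote droplet formation at the endoplasmic reticulum, were both below PBS in every HA library. Fitm1, known mainly from muscle, was at 53.1, 57.6 and 51.6 FPKM in PBS replicates 1 to 3 and at 19.2, 7.23 and 23.4 FPKM in HA replicates 1 to 3. PBS libraries were within 1.12-fold of each other, and HA replicate 2 was the lowest. The means of 54.1 ± 3.14 and 16.6 ± 8.40 FPKM (SD, n = 3 per group) differed 3.26-fold, with a log2 fold change of -1.79 (SE 0.37, 95% interval -2.65 to -0.93, adjusted p = 0.0779). It passed without HA replicate 2 (log2 fold change -1.31, limma adjusted p = 0.0152), at a smaller fold of 2.54, and did not without PBS replicate 1 as well (log2 fold change -1.32, adjusted p = 0.0776). PBS replicates 2 and 3, whose muscle markers summed to 0.264 and 0.979 FPKM, held Fitm1 at 57.6 and 51.6 FPKM. In PBS replicate 1, where these markers summed to 46.4 FPKM, Fitm1 was at 53.1 FPKM. Without PBS replicate 1 the fold was 3.29. The part of muscle RNA in the Fitm1 values was not tested.

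Fitm2, found in most tissues, was at 23.1, 21.1 and 19.2 FPKM in PBS replicates 1 to 3 and at 6.22, 11.2 and 15.6 FPKM in HA replicates 1 to 3. The order of the HA libraries differed from that of Fitm1. The log2 fold change was -0.96 (SE 0.28, 95% interval -1.61 to -0.32, adjusted p = 0.143), and the fold of means was 1.92. Fitm1 per unit of Fitm2 was 2.29 to 2.73 in the PBS libraries and 3.09, 0.645 and 1.51 in HA replicates 1 to 3 (exact permutation p = 0.4, 0.48 adjusted over the 6 ratios).

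**Figure D4:**
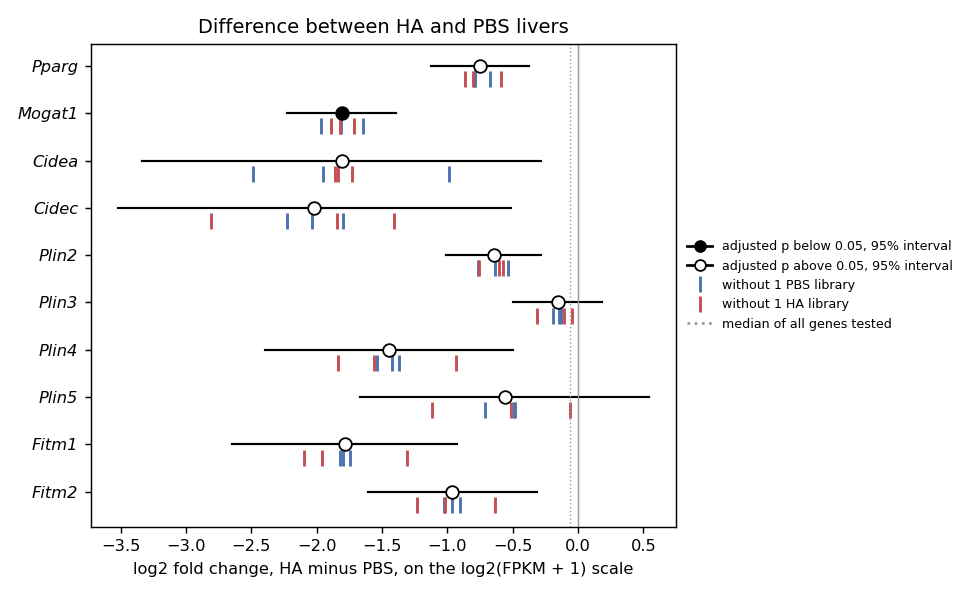
Log2 fold change, HA minus PBS, of each gene on the log2(FPKM + 1) scale with its 95% interval, filled where the adjusted p is below 0.05, and ticks for fits without 1 PBS (blue) or 1 HA (red) library. Every point and every tick lies below 0, and the ticks of Cidea, Cidec and Plin5 spread widest.

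The 10 genes did not follow a common order among the HA libraries. Cidea, Cidec, Plin2 and Plin5 were highest in HA replicate 2, while Pparg, Mogat1 and Fitm1 were lowest there. HA replicate 1 held the lowest value of 5 genes, Cidea, Cidec, Plin4, Plin5 and Fitm2. The coefficient of variation was larger with HA than with PBS in 8 of the 10, Cidea and Plin2 being the exceptions. The share of all tested genes with this trait was not computed. Fragment numbers over the table also differed more between HA libraries than between PBS libraries. Their chi-square per degree of freedom was 97.0 to 219 between HA libraries and 33.5 to 75.3 between PBS libraries, so the larger spread is not particular to the 10 genes. Among PBS libraries, 7 genes were highest in replicate 2 and 8 were lowest in replicate 3.

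By level with PBS, Plin2 came first, then Fitm1, Plin5, Fitm2 and Plin3, each separate from the next over the libraries. Below these, Plin3 and Cidec overlapped, as did Cidec and Plin4, Pparg and Cidea, and Cidea and Mogat1, while Plin4 lay above Pparg. With HA, Plin2 remained separate at 85.7 FPKM or more, every neighbouring pair from Plin5 through Fitm1, Plin3, Fitm2, Cidec and Pparg to Plin4 overlapped, and Mogat1 and Cidea came last, each separate from the gene above.

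Of 15 other PPARG targets tested out of 16 listed, Fabp4, Cfd and Adipoq among them, Cd36, the fatty acid translocase, fell and 0 rose in limma, 0 passed with voom, and 5 were lower and 1 higher at an unadjusted p under 0.05 (13.1% and 4.61% of all tested genes); the median log2 fold change was -0.31. Cd36 was at 65.0, 71.1 and 63.4 FPKM in PBS replicates 1 to 3 and 30.6, 27.2 and 39.4 FPKM in HA replicates 1 to 3 (adjusted p = 0.0411). Among single libraries left out, that call was lost without HA replicate 1 or any PBS library (adjusted p up to 0.152), and over all 15 alternatives, others of which also lost it, the adjusted p ran from 0.0287 to 0.155. Lpl, lipoprotein lipase, stood on the other side, with a log2 fold change of 1.67 (limma adjusted p = 0.124). It was at 5.97, 4.68 and 2.48 FPKM in PBS replicates 1 to 3 and 11.8, 31.9 and 9.46 FPKM in HA replicates 1 to 3. The part of adipocyte RNA in the Lpl values was not tested. Without HA replicate 2 the log2 fold change of Lpl was 1.17 (adjusted p = 0.110), and without PBS replicate 1 as well it was 1.38 (adjusted p = 0.155). Gpd1, glycerol-3-phosphate dehydrogenase, was at 155 ± 39.8 and 86.8 ± 10.9 FPKM (adjusted p = 0.0966), and the thioesterase Acot2 at 8.24 ± 0.338 and 3.88 ± 2.18 FPKM (adjusted p = 0.180).

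Of 24 other droplet protein genes tested out of 26 listed, 0 rose and 0 fell in limma or with voom, 8 were lower and 0 higher at an unadjusted p under 0.05 (13.1% and 4.61% of all tested genes), and the median log2 fold change was -0.19. Mettl7a1, a droplet methyltransferase-like protein, was at 69.8 ± 3.15 and 51.8 ± 1.28 FPKM (adjusted p = 0.0840). The droplet hydrolase Ldah was at 12.8 ± 0.863 and 8.81 ± 2.05 FPKM (adjusted p = 0.174). Pcyt1a, which supplies phosphatidylcholine to growing droplets, was at 18.4 ± 0.926 and 14.1 ± 2.58 FPKM (adjusted p = 0.219).

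Targets of PPARA, which also drives Plin2 and Plin5 in hepatocytes, all had negative log2 fold changes (16 of 16, median -0.61), as did 62.8% of all tested genes. In 9 of them every HA value lay below every PBS value, against 19.2% of all tested genes. In limma 2 fell and 0 rose, with voom 1 fell, and 10 were lower and 0 higher at an unadjusted p under 0.05 (13.1% and 4.61% of all tested genes). Not every mean was lower with HA. Cyp4a14 averaged 871 ± 57.3 FPKM in PBS and 917 ± 733 FPKM in HA libraries, with 205, 1669 and 877 FPKM in HA replicates 1 to 3. Acaa1b, a thiolase of peroxisomal beta-oxidation, fell from 747 ± 88.5 to 346 ± 60.6 FPKM (limma adjusted p = 0.0411), and over the 15 alternatives the adjusted p ran from 0.0208 to 0.147. Among single libraries left out, only the fit without HA replicate 2 kept this call. Vnn1, pantetheinase, was at 90.3 ± 13.9 and 40.3 ± 18.4 FPKM (adjusted p = 0.132), and Acadm, medium-chain acyl-CoA dehydrogenase, at 357 ± 3.54 and 236 ± 54.7 FPKM (adjusted p = 0.143).

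**Figure D5:**
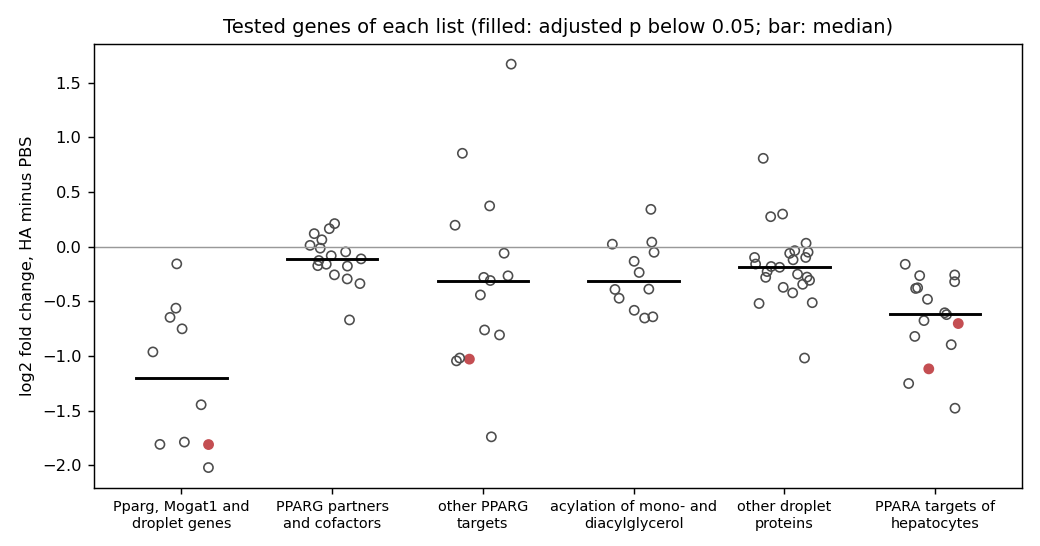
Log2 fold change, HA minus PBS, of the tested genes among the 10 and in each of 5 lists, filled where the adjusted p is below 0.05, with a bar at the median. The medians were -1.20 for the 10 genes and -0.11, -0.31, -0.31, -0.19 and -0.61 for the lists from left to right.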

How the data were processed

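Mouse liver RNA in 6 libraries (3 PBS, 3 HA, grouped by the treatment label) was deposited by the authors as FPKM values for 16638 genes, 1 column per library. The unit was inferred from the value steps. Per the submitters' processing notes, Trimmomatic and HISAT2 were used with build GRCm39, and per the labels' protocols the RNA came from TRIzol extraction. 2 library kits are named, with no word on which served. For versions, counter, annotation and strand use: not given in the sources used here. Whole fragments and library totals were worked back from the FPKM steps. All 99828 values came out whole within 0.0001, and a common factor could remain. Depth covers counting error only. No pair of libraries was a copy (chi-square per degree of freedom at least 33.5).

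Tests used limma 3.58.1 (R 4.3.3) on log2(FPKM + 1), treatment as the only term, variance trend on, for genes averaging 0.5 FPKM or more. P-values were two-sided and Benjamini-Hochberg adjusted over 10745 genes. The fold change scale understates changes of low genes. The voom fit used the recovered fragments with TMM factors. Ratios were tested by exact permutation. On simulated data, the fit recovered 37.3% of 1.5-fold, 89.6% of 2-fold and 93.9% of 4-fold changes, with 8 false calls. Each simulated gene had the median spread of genes at its level, so wider spreads were not covered. Genes named from each list were the up to 4 of smallest unadjusted p, and the 5 nearest profiles needed a mean of 1 FPKM. The 10 genes, the lists and the rules were chosen with earlier results of these data known. Other genes named, such as markers and neighbours, were chosen with values seen. Other settings tried were 14 in pseudocount, filter, trend, block, scaling, test and libraries left out, and 1 more added after the values were seen. Some genes that these rules picked are not reported here.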

Additional observations from a re-analysis of the deposited data

How the results depend on the processing

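All 10 genes kept a negative log2 fold change under all 15 alternatives. The number of the 10 that fell was 1, and 0 to 3 without 1 library in turn, with 0 without PBS replicate 1 and 3 (Mogat1, Cidec and Fitm1) without HA replicate 2. It was 0 without both PBS replicate 1 and HA replicate 2, an alternative chosen after seeing the data, which left 3 genes higher and 3 lower in all. Over all genes, 31 were higher and 55 lower. Without 1 library in turn 1 to 46 were higher and 4 to 69 lower. With no filter the counts were 7 and 10. Lower genes numbered 32 after median centring, 24 with depth outside Alb and 19 with voom. The ratio of Plin5 to Plin2, a log2 difference of 0.06, ran from -0.40 (HA replicate 2 left out) to 0.55 (HA replicate 1 left out), and was also reversed at -0.21 with PBS replicate 2 left out and at -0.33 with both PBS replicate 1 and HA replicate 2 left out. The cause of these moves was not tested. Fits with libraries left out also rest on fewer libraries. Of the 20 genes picked from lists, 0 changed sign, and 3, Cd36 and Acaa1b among them, lost their calls under some alternatives.

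With the replicate number as a replicate block, 7 genes were higher, 9 lower and 0 of the 10 passed (Mogat1 adjusted p = 0.0586). Same-numbered libraries deviated together with correlations of -0.138, -0.125 and 0.176, and only those numbered 3 correlated best with each other. These correlations gave no clear sign of pairing by number. They cannot exclude it, since they rest on deviations of 3 libraries from the mean of their own group.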
